A study of Mus musculus with 18 samples.

Results

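Tissue inhibitors of metalloproteinases (TIMPs) and the matrix metalloproteinases (MMPs) were followed in the livers and liver tumours of mice with and without the miR-181ab1 cluster. The 10 genes, Timp1, Timp2, Timp3, Timp4, Mmp2, Mmp9, Mmp12, Mmp14, Mmp15 and Mmp19, were taken by their symbols from the 54838 genes of the table, and all 10 were found. Timp3 was included as a known target of miR-181. The study asked how loss of miR-181ab1 alters liver cancer. Its RNA-seq values covered 18 mouse liver samples in 6 groups of 3, all from mice of strain C57BL/6 at 36 weeks of age. Wild-type (WT) mice and global knockout (GKO) mice, which lack Mir181a-1 and Mir181b-1 in every tissue, each gave tumours, non-tumour liver and normal liver. The mice that gave tumours or non-tumour liver had received the liver carcinogen diethylnitrosamine (DEN) once at 25 mg/kg on postnatal day 12. The mice with normal livers were untreated. The labels do not tell which tumour and non-tumour samples came from 1 animal, or how many animals there were, so p-values measure the spread between these samples.

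TIMPs are small secreted proteins that bind the active site of metalloproteinases and block it. MMPs are zinc enzymes that cut collagens and other proteins of the extracellular matrix. In liver, stellate cells, endothelial cells, macrophages and hepatocytes contribute different members of both families, and the balance between them sets how fast fibrous matrix is laid down and cleared. MicroRNAs of the miR-181 family pair through a shared seed with sites in the 3′ UTRs of mRNAs and lower their stability or translation.

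The mature miRNAs of the deleted cluster and their matches in the members are shown because they are the direct sequence link between the deletion and these genes. The sequences of the miRNAs, from RefSeq on GRCm38.p6, are given 5′ to 3′ with the seed, bases 2 to 8, in capitals. miR-181a-5p of Mir181a-1 lies at chr1:137966468-137966490 and miR-181b-5p of Mir181b-1 at chr1:137966650-137966673, both on the plus strand.
miR-181a-5p: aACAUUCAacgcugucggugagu
miR-181b-5p: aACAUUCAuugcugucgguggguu
The same seed is carried by miR-181c-5p and miR-181d-5p, and the same mature miR-181a-5p and miR-181b-5p are also made from Mir181a-2 and Mir181b-2 on chromosome 2. Those 4 genes are not part of the deleted cluster. The hairpin genes could not serve as a check of the genotype labels, since Mir181b-1 was listed at 0 TPM in all 18 samples, WT included, and Mir181a-1 in 17, with 1 read in GKO tumour 3.

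Timp2, Timp3, Timp4 and Mmp12 held a match to the seed in the 3′ UTR of the coding transcript with the longest UTR (GENCODE release 21, mm10, the build of the files). Matches were searched on the sense strand: TGAATGT (a 7mer-m8), TGAATGTA (an 8mer, counted once and not again as a 7mer) and GAATGTA (a 7mer-A1). Timp3, with a UTR of 3604 nucleotides, held 1 of each kind, and Timp2, with 2630 nucleotides, held a single 7mer-m8. The 30-base windows around these 4 matches are shown with the matching bases in capitals.
Timp3 8mer, chr10:86349416-86349423, plus strand: tttatattccgTGAATGTAtattgtcttgt
Timp3 7mer-m8, chr10:86348321-86348327, plus strand: caattatatcgTGAATGTtttattttgcta
Timp3 7mer-A1, chr10:86349342-86349348, plus strand: ccctctagaagGAATGTAtttgttgctaaa
Timp2 7mer-m8, chr11:118302250-118302256, minus strand: ctggtagcctgTGAATGTtccttttgtaaa
Timp4 and Mmp12 each held a 7mer-A1 and no longer match, and the other 6 members held none. Of 21013 mouse genes with a 3′ UTR, 5.29% held an 8mer, 16.4% an 8mer or a 7mer-m8, and 4416 genes a match of any kind, in UTRs with a median length of 961 nucleotides. A match is a description of the letters and not a site shown to be used.

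Levels are given as TPM, in which the authors corrected reads for gene length and brought every sample to 1 fixed total, so that members can be set beside each other. Recovered from the TPM values, the reads on genes numbered 11925094 in the shallowest sample, 16974020 in the median sample and 20751596 in the deepest. Mmp14, a membrane-anchored collagenase that also activates MMP2, was the highest of the 10 members in 16 of the 18 samples, the exceptions being GKO tumour 1, led by Timp2, and WT non-tumour 2, led by Mmp19. Timp2 was the highest Timp gene in 17 samples and Timp1 in GKO tumour 2. Timp4, Mmp9 and Mmp12 stayed under 2 TPM everywhere.

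**Figure D1:**
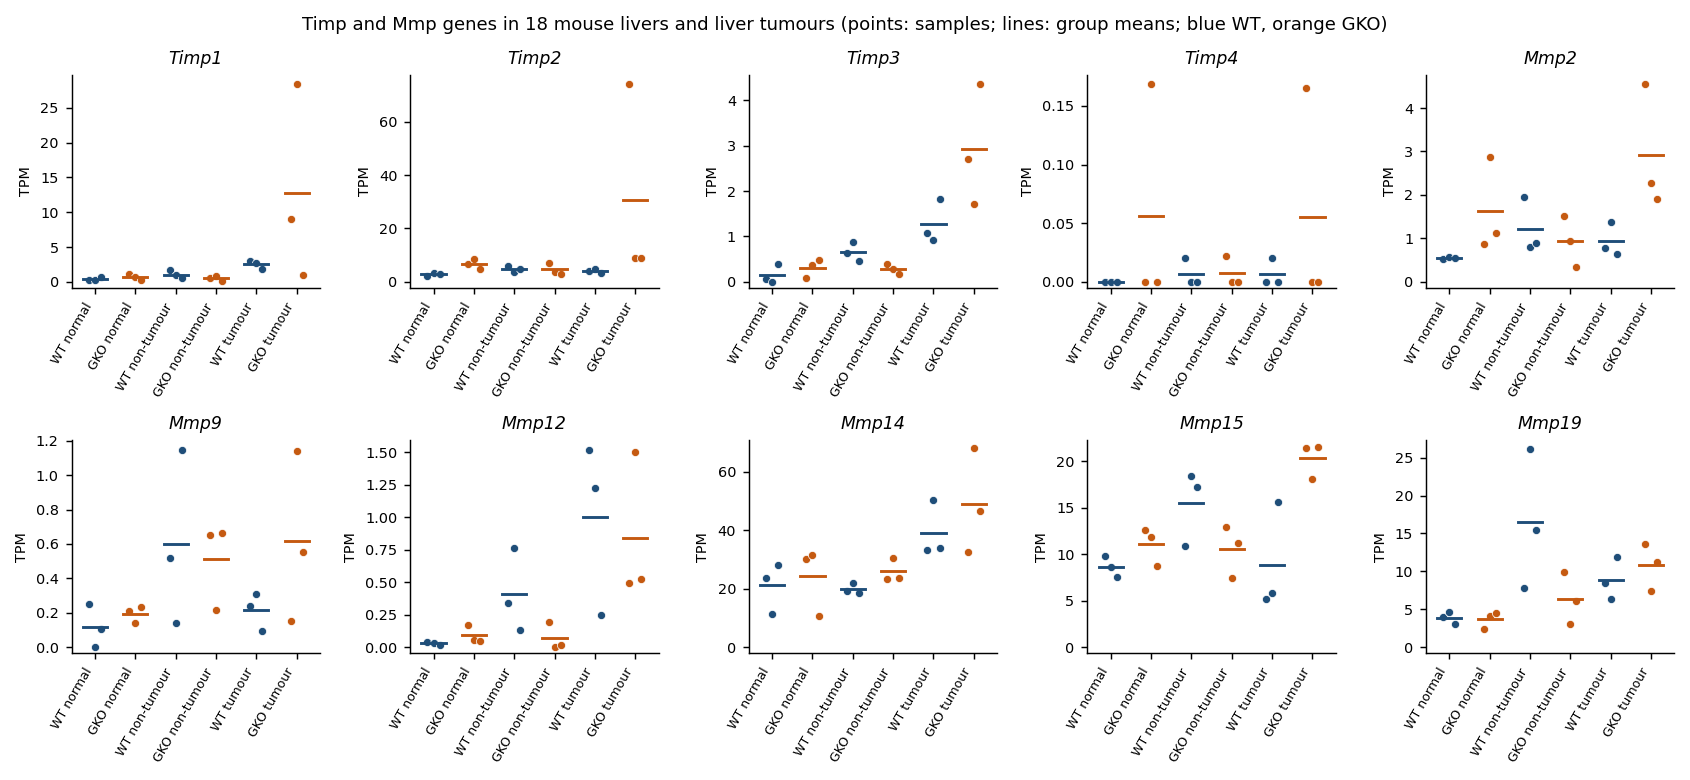
TPM of each of the 10 genes (vertical axes, linear, a scale per gene) in the 6 groups (horizontal axes), with a point per sample and a line at the mean of 3 samples; WT is blue and GKO orange. All 6 tumours lie above all 6 non-tumour livers for Timp3 and Mmp14, and the mean of Timp2 in GKO tumours is set by a single sample at 74.1 TPM.

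Tumours were first compared with non-tumour livers over both genotypes, since this asks what the tumours share. Timp3 and Mmp14 rose in tumours, and no member fell. With limma on log2(TPM + 1), 2 of the 8 members that passed the filter of a mean of 0.5 TPM had an adjusted p under 0.05 (Benjamini-Hochberg over all genes tested), beside 20.1% of 14106 genes in either direction and 12.2% that were higher. Timp4 and Mmp9 did not pass the filter. Since the level enters the filter, members that are high in 1 group pass more easily.

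Timp3 encodes the TIMP that binds to the extracellular matrix and also inhibits ADAM proteases. WT tumours 1 to 3 held 1.07, 0.912 and 1.82 TPM of it, whereas GKO tumours 1 to 3 held 2.71, 1.71 and 4.35 TPM. Among non-tumour livers, levels were 0.643, 0.872 and 0.455 TPM in WT mice, with 0.392, 0.282 and 0.168 TPM in GKO mice. Every tumour lay above every non-tumour liver, which held for 4.76% of all genes, or 7.86% in either direction. The difference was 1.00 ± 0.24 (log2, SE; adjusted p = 0.0121), and the exact permutation test within genotypes gave its smallest possible p of 0.005, as 1 of 20 such tests. These levels rested on 11 to 58 reads in non-tumour livers and 61 to 291 reads in tumours. The gene lies at chr10:86300372-86349506 (plus strand) inside Syn3, a gene of the other strand, with whose exons 1733 of its 8144 exonic bases overlap. Syn3 was at 0.114 TPM or less, and whether the counting used strand is not given in the sources used here.

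Mmp14 (chr14:54431612-54445364, plus strand) reached 33.3, 50.4 and 34.0 TPM in the WT tumours, while the GKO tumours had 32.4, 68.1 and 46.7 TPM. Non-tumour livers had 19.2, 21.9 and 18.6 TPM in WT and 23.4, 30.6 and 23.7 TPM in GKO. The 6 tumours again lay above all 6 non-tumour livers. The difference was 0.88 ± 0.19 (log2, SE; adjusted p = 0.00750, exact permutation p = 0.005). Normal livers, with 23.8, 11.4 and 28.3 TPM in WT and 30.2, 31.6 and 10.8 TPM in GKO, overlapped the non-tumour livers. They lay below all 6 tumours, though GKO normal 2 at 31.6 TPM was close to GKO tumour 1 at 32.4 TPM.

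Timp1 (chrX:20870166-20874735, plus strand) encodes an inducible TIMP that is a common marker of liver fibrosis. Its level was 3.00, 2.74 and 1.91 TPM in the WT tumours, and GKO tumours ranged more widely, at 9.02, 28.4 and 0.960 TPM, against 1.64, 0.965 and 0.538 TPM in WT and 0.575, 0.862 and 0.140 TPM in GKO non-tumour livers. Of the tumours, 5 lay above all non-tumour livers and GKO tumour 3 did not. The difference of 1.65 ± 0.54 missed the threshold narrowly (adjusted p = 0.0505), with an exact permutation p of 0.005. It passed without GKO tumour 3, WT tumour 3 or WT non-tumour 2 (adjusted p = 0.0173, 0.0473 and 0.0499985). In all, it passed in 6 of 21 alternatives. The adjusted p rose to 0.113 without GKO non-tumour 3, and the difference fell to 1.15 without GKO tumour 2. Counts were small, from 1 to 12 reads in non-tumour livers and 7 to 206 in tumours. Mmp12, a macrophage elastase, had 0.250 to 1.52 TPM in the 6 tumours, with a median of 0.522 TPM in GKO and 1.23 TPM in WT. In non-tumour livers it had 0 to 0.761 TPM. Its difference of 0.60 ± 0.21 did not pass (adjusted p = 0.0610, exact permutation p = 0.025). It did without WT tumour 3 or WT non-tumour 2 (adjusted p = 0.0124 and 0.0321). In all, Mmp12 passed in 4 of 19 alternatives, and its adjusted p rose to 0.122 without GKO non-tumour 3. The median of the macrophage markers, unlike the difference of Mmp12, was negative, at -0.86 over 12 tested genes, against 0.08 over all genes. Of these markers 4 were called lower and none higher, beside 20.1% of all genes called and 12.2% called higher. Over the 18 samples Mmp12 had a Pearson r of 0.05 with their summed level, and in the 6 tumours alone r was 0.49. The part of macrophages in the Mmp12 values was not tested.

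Within WT mice none of 8 tested members had an adjusted p under 0.05, against 4.23% of 14003 genes, and 2, Timp1 and Mmp14, had an unadjusted p under 0.05, against 19.9%. Timp1, Timp3 and Mmp14 did not overlap between WT tumours and WT non-tumour livers, as was the case for 24.8% of genes, and were higher in tumours by 0.82 ± 0.27, 0.44 ± 0.24 and 0.92 ± 0.24 on the log2 scale (adjusted p = 0.155, 0.360 and 0.0921). The value of Timp3 was 0.27 without WT tumour 3. Mmp15, a membrane-anchored MMP, had 5.22, 5.82 and 15.6 TPM in WT tumours and 10.9, 18.4 and 17.3 TPM in WT non-tumour livers. WT tumour 3 lay within the non-tumour range, and the difference of -0.86 had an adjusted p of 0.317, which became -1.31 with an adjusted p of 0.0407 without that sample and -0.60 with an adjusted p of 0.657 without WT tumour 1.

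Within GKO mice Timp3 was the 1 member of 8 tested with an adjusted p under 0.05, against 11.7% of 14092 genes and 7.75% that were higher. Its difference was 1.56 ± 0.27 (adjusted p = 0.0166), with TPM means of 2.93 ± 1.33 in tumours and 0.281 ± 0.112 outside them (SD, n = 3). The call was lost without GKO non-tumour 2 or 3 (adjusted p = 0.0542 and 0.0757), and without the filter on low values (adjusted p = 0.0550), which Timp3 passed through its level in tumours. GKO tumours and GKO non-tumour livers did not overlap for 6 of the 8 members, all higher in tumours, beside 38.3% of genes in either direction and 25.7% that were higher. Apart from Timp3 these were Timp1, Timp2, Mmp2, Mmp14 and Mmp15, with differences of 2.48 ± 0.86, 1.84 ± 0.77, 1.01 ± 0.33, 0.84 ± 0.30 and 0.92 ± 0.25 and adjusted p-values of 0.102, 0.150, 0.0897, 0.110 and 0.0536. Timp1 differed by 3.52 without GKO tumour 3 (adjusted p = 0.0263) and by 1.57 without GKO tumour 2 (adjusted p = 0.163). Timp2 fell to 0.86 without GKO tumour 1 (adjusted p = 0.166). Mmp15 differed by 1.07 with an adjusted p of 0.0494 without GKO non-tumour 1. The median difference of all genes was 0.20 in this comparison, and each of these values is to be read against it.

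**Figure D2:**
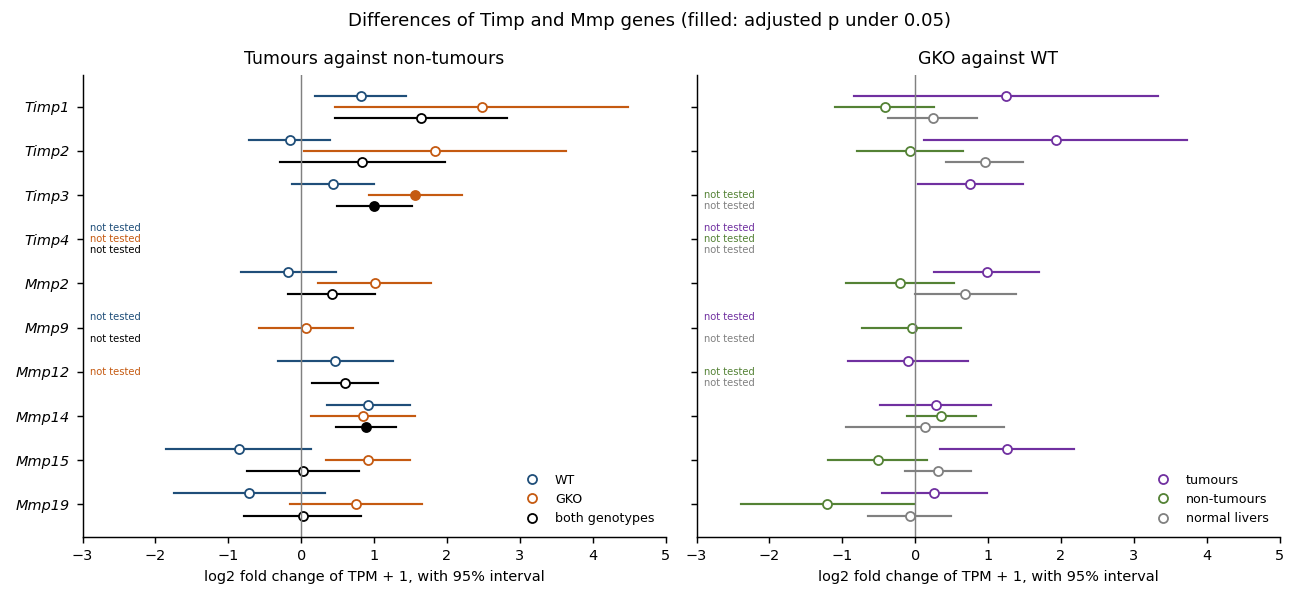
Log2 differences of TPM + 1 (horizontal axes) of the 10 genes (vertical axes), with 95% intervals from limma; the left panel sets tumours against non-tumour livers and the right panel GKO against WT. Filled points, with an adjusted p under 0.05, are Timp3 in GKO mice and Timp3 and Mmp14 over both genotypes; no point in the right panel is filled.

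The effect of the deletion within tumours was asked by setting GKO against WT tumours. None of the 8 tested members had an adjusted p under 0.05, nor did more than 0.0215% of 13964 genes. Timp2, Mmp2 and Mmp15 were higher in every GKO tumour than in every WT tumour, a separation seen for 14.7% of genes in either direction and 9.88% in this one. Timp2, Timp3, Mmp2 and Mmp15 had an unadjusted p under 0.05, as did 8.87% of genes.

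Mmp15 had 21.4, 18.1 and 21.5 TPM in GKO tumours, against the 5.22, 5.82 and 15.6 TPM of WT tumours given above. The difference was 1.26 ± 0.39 (unadjusted p of limma 0.0141, adjusted p = 0.465). WT tumour 3 stood apart from the other WT tumours, and without it the difference became 1.71 (adjusted p = 0.0275). Leaving out WT tumour 1 in its place gave 1.00 (adjusted p = 0.987). The gene lies at chr8:95352268-95375080 (plus strand), and it is on the list of targets of the polycomb protein CBX7 that the study used. The paper presumed that at least some targets of CBX7 would be lower in GKO tumours. It reported several that were, among them Wnt10a and Fgfr2. Mmp15 is 1 target and its difference was not called, so it does not bear on that presumption. A link of Mmp15 to CBX7 was not tested.

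Timp2, a TIMP that also helps MMP14 to activate MMP2, had 74.1, 8.91 and 8.88 TPM in the GKO tumours, above the 4.19, 4.97 and 3.32 TPM of the WT tumours. The difference was 1.93 ± 0.76 (adjusted p = 0.539) and fell to 0.95 without GKO tumour 1, which held 2666 reads of the gene against 284 in each of the other GKO tumours. Mmp2, the gelatinase that this pair activates, had 4.56, 2.29 and 1.92 TPM in the GKO tumours, above the 0.789, 1.37 and 0.639 TPM of the WT tumours. It differed by 0.98 ± 0.31 (adjusted p = 0.465), and GKO tumour 1 was again the highest. Timp2 lies at chr11:118301069-118355740 (minus strand) and Mmp2 at chr8:92827291-92853420 (plus strand).

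Timp3, the member with the 8mer, differed by 0.76 ± 0.31 (95% interval 0.03 to 1.48, adjusted p = 0.544) between GKO and WT tumours. The groups overlapped, since GKO tumour 2 at 1.71 TPM lay below WT tumour 3 at 1.82 TPM. The paper states that TIMP3 was higher in DEN tumours than in non-tumour livers. It also states, as data not shown, that GKO and WT tumours had similar levels. Timp2, with a 7mer-m8, was 1 of the 3 that did not overlap, and Mmp2 and Mmp15 hold no match. Timp1, which has a UTR of 103 nucleotides and no match, had an interval from -0.84 to 3.33 around 1.24. For Mmp14 the interval was -0.48 to 1.04.

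**Figure D3:**
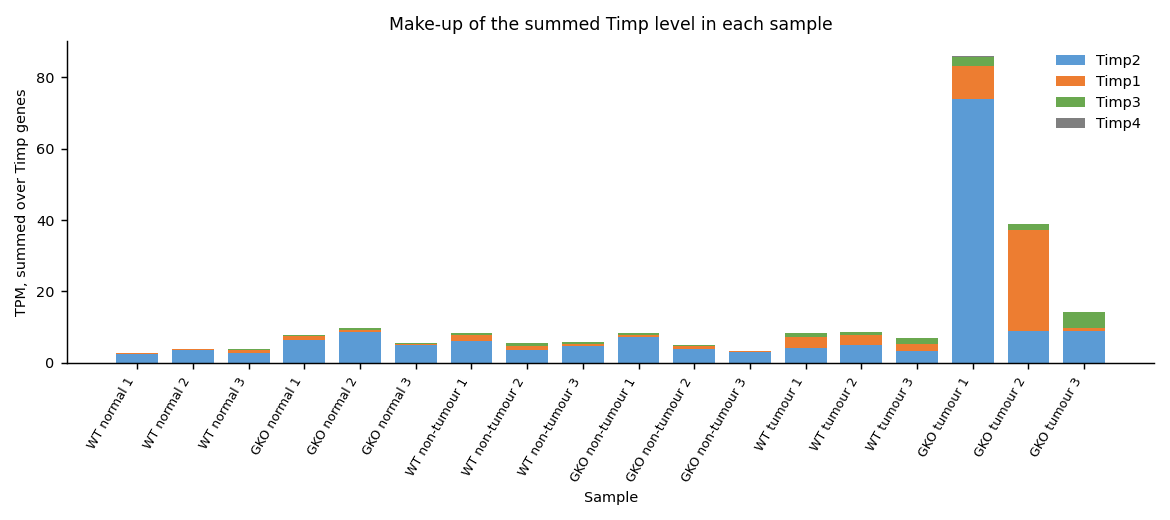
Summed TPM of the Timp genes (vertical axis) in each of the 18 samples (horizontal axis), with the part of each gene as a coloured segment. The sum is 2.75 to 9.77 TPM in the 15 samples other than GKO tumours, and the GKO tumours reach 86.0, 39.0 and 14.2 TPM, with Timp2 the largest segment in GKO tumours 1 and 3 and Timp1 in GKO tumour 2.

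The make-up of the summed Timp level varied among the GKO tumours. Timp2 made up 86.2% of it in GKO tumour 1 and 62.6% in GKO tumour 3, where Timp3 gave a further 30.7%, while Timp1 made up 72.8% in GKO tumour 2. The WT tumours had sums of 8.26, 8.64 and 7.05 TPM, with 47.0% to 57.5% from Timp2. The share of Timp3 was 12.95%, 10.55% and 25.8% in WT tumours 1 to 3. The summed level of the 6 Mmp members was 72.7, 98.7 and 82.5 TPM in the GKO tumours, above the 49.5, 65.4 and 62.4 TPM of the WT tumours.

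Markers of fibroblasts and stellate cells were, like Timp2 and Mmp2, higher in GKO than in WT tumours. The summed TPM of 14 such markers was 138 to 251 in GKO tumours and 69.4 to 119 in WT tumours, which do not overlap, and 6 of the 12 that passed the filter had an unadjusted p under 0.05, all higher in GKO, beside 8.87% of all genes. Their median difference was 0.94, against 0.09 over all genes. None of the 12 had an adjusted p under 0.05. The sum was highest in GKO tumour 2, at 251 TPM, whereas GKO tumour 1, the highest in Timp2 and Mmp2, had 189 TPM. In GKO tumours against GKO non-tumour livers, where Timp2 and Mmp2 were higher without overlap, 13 markers were tested. Their median difference was -0.18, against 0.20 over all genes, but the list was split. Of the 13, 5 were called higher, among them Col1a1, Acta2 and Col3a1, and 1 was called lower. Of all genes 11.7% were called and 7.75% were called higher. In bulk tissue, more cells of a type and more RNA per cell cannot be told apart. Over the 18 samples Mmp2 had a Pearson r of 0.883 and a Spearman rho of 0.930 with Timp2, on log2(TPM + 1). Without GKO normal 2 and GKO tumour 1, the samples farthest from the median of Mmp2, r was 0.890 over 16 samples. The r of the summed fibroblast markers was 0.755 with Mmp2 and 0.675 with Timp2 (0.844 without GKO tumour 1). The points share tissue groups and genotypes. Timp4, listed at 0 in 13 samples, had its highest values in the same pair of samples, at 0.168 TPM from 8 reads in GKO normal 2 and 0.165 TPM from 9 reads in GKO tumour 1. In the samples at 0 the floor of 3 reads corresponded to 0.0488 to 0.0750 TPM.

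**Figure D4:**
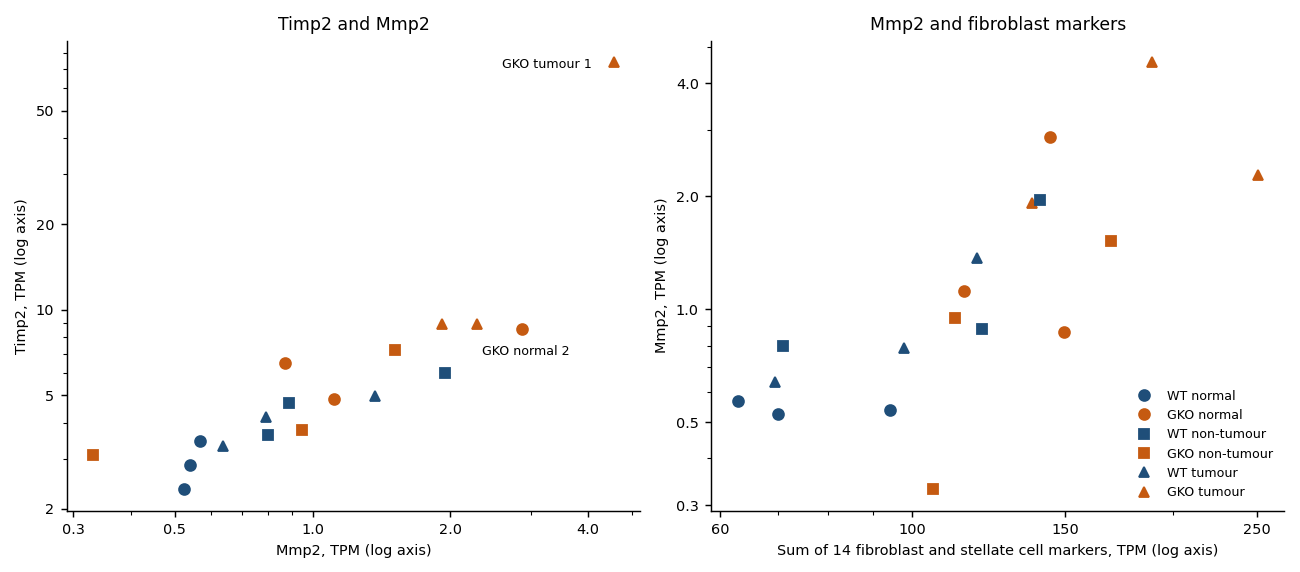
Left, Timp2 against Mmp2; right, Mmp2 against the summed level of 14 fibroblast and stellate cell markers, all in TPM on log axes, with a point per sample (18). Timp2 and Mmp2 order the samples alike (rho 0.930), and GKO tumours lie to the right of WT tumours in both panels.

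Markers of bile duct cells, 7 genes, summed to 22.2 to 54.0 TPM in WT tumours and to 37.9, 961 and 549 TPM in GKO tumours, mostly through Spp1. Endothelial markers, 12 genes, overlapped between GKO tumours (106 to 155 TPM) and WT tumours (107 to 144 TPM), as did macrophage markers, 13 genes, with 216 to 558 and 190 to 369 TPM. The part of these cells in the differences of the members was not tested. The sum of the 10 hepatocyte markers was at most 97777 TPM in non-tumour livers and at least 178258 TPM in tumours. Most of it was Alb and Apoa1, while the total TPM of a sample is fixed. Over both genotypes 3 of the 10 were called higher and 1 lower, beside 20.1% of all genes called and 12.2% called higher. Cyp2e1 had means of 7533 TPM in WT and 6153 TPM in GKO non-tumour livers, against 239 and 623 TPM in tumours.

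Whether the effect of the deletion differs between tumours and non-tumour livers was asked with an interaction term. No member passed, beside 0.0142% of 14106 genes that did, and 5 had an unadjusted p under 0.05, beside 10.5% of genes. These were Mmp15 (1.78 ± 0.51), Timp3 (1.12 ± 0.36), Mmp2 (1.19 ± 0.45), Mmp19 (1.46 ± 0.63) and Timp2 (2.00 ± 0.90), all with a GKO minus WT difference that was larger in tumours and adjusted p-values from 0.417 to 0.475. The median over all genes was 0.23. Without WT tumour 3, Mmp15 had a value of 2.23 and an adjusted p of 0.0274, and without GKO tumour 1 Timp2 had 1.02 with an adjusted p of 0.551.

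In non-tumour livers none of 7 tested members differed between GKO and WT at an adjusted p under 0.05, and neither did any of 13768 genes (0%, with 5.80% at an unadjusted p under 0.05). Mmp19, a secreted MMP and the 1 member with an unadjusted p under 0.05, had 9.98, 3.07 and 6.14 TPM in GKO and 7.79, 26.2 and 15.5 TPM in WT non-tumour livers, which overlap, and differed by -1.21 ± 0.50 (adjusted p = 0.643). Mmp14 was higher in each GKO than in each WT non-tumour liver by 0.36 (adjusted p = 0.643), or 0.24 without GKO non-tumour 2, as 13.2% of genes did not overlap. Timp3, Timp4 and Mmp12 did not pass the filter there. Timp3 was at 0.168 to 0.392 TPM in the GKO and 0.455 to 0.872 TPM in the WT non-tumour livers, so its untested order there was the reverse of that of the means in tumours. The median difference of all genes was -0.15.

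In normal livers none of 6 tested members had an adjusted p under 0.05, and again no gene of 13099 did (0%, with 3.96% at an unadjusted p under 0.05). Timp2, the 1 member with such an unadjusted p, was higher in GKO, with 6.50, 8.53 and 4.86 TPM against 2.34, 3.47 and 2.85 TPM in WT, without overlap, and differed by 0.95 ± 0.23 (adjusted p = 0.912). Mmp2 had 0.871, 2.87 and 1.12 TPM in GKO and 0.524, 0.567 and 0.540 TPM in WT, without overlap, and differed by 0.69 (adjusted p = 0.999), or 0.37 without GKO normal 2. Of all genes, 7.95% did not overlap. The summed fibroblast and stellate cell markers were 115 to 150 TPM in GKO and 62.9 to 94.2 TPM in WT normal livers, the endothelial markers 84.2 to 121 and 56.5 to 59.2 TPM, and the markers of bile duct cells 84.6 to 92.4 and 34.0 to 50.9 TPM, so that all these sums were higher in each GKO liver as well. Their part in the values of Timp2 and Mmp2 was not tested.

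Non-tumour livers were set against normal livers to ask what follows DEN outside the tumours. None of 6 tested members had an adjusted p under 0.05, beside 0.400% of 13488 genes that did, and 1, Mmp19, had an unadjusted p under 0.05, as did 20.8% of genes. The median over all genes was 0.21. Mmp19 had 3.96, 4.65 and 3.01 TPM in WT and 2.39, 4.14 and 4.52 TPM in GKO normal livers. Of the 6 non-tumour livers 5 lay above all normal livers, and GKO non-tumour 2, at 3.07 TPM, did not. The difference was 1.14 ± 0.33 (adjusted p = 0.122, exact permutation p = 0.015), and 1.37 with an adjusted p of 0.0341 without GKO non-tumour 2. In tumours Mmp19 had 8.46, 6.34 and 11.8 TPM in WT and 13.7, 7.48 and 11.2 TPM in GKO mice. From non-tumour livers to tumours its mean went from 16.5 to 8.88 TPM in WT and from 6.40 to 10.8 TPM in GKO. Neither change was called, and tumours were not tested against normal livers. Mmp19 shares 789 of 3533 exonic bases with Tmem198b on the other strand, which was at 1.48 TPM or less. Mmp9, the gelatinase of neutrophils and macrophages, had 0 to 0.250 TPM in normal livers and 0.138 to 1.15 TPM in non-tumour livers, under the filter, with an exact permutation p of 0.03. The summed macrophage markers were 154 to 257 TPM in WT normal and 286 to 835 TPM in WT non-tumour livers, and 195 to 451 and 269 to 1308 TPM in GKO. Neutrophil markers, 10 genes, overlapped in both genotypes. The part of these cells in the Mmp9 and Mmp19 values was not tested.

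Ordered by group means, Timp3 ran from GKO tumours (2.93 TPM) through WT tumours (1.27 ± 0.49), WT non-tumour livers (0.657 ± 0.209), GKO normal livers (0.306 ± 0.207) and GKO non-tumour livers (0.281) to WT normal livers (0.157 ± 0.213, SD, n = 3 throughout). Of these neighbours WT tumours and WT non-tumour livers were the 1 pair without overlap. Mmp15 ran from GKO tumours (20.4 ± 1.92 TPM) through WT non-tumour livers (15.5 ± 4.06), GKO normal livers (11.1 ± 2.03), GKO non-tumour livers (10.5 ± 2.77) and WT tumours (8.88 ± 5.83) to WT normal livers (8.67 ± 1.09), and all neighbours in this order overlapped, the highest pair only just, since GKO tumours began at 18.1 TPM and WT non-tumour livers ended at 18.4 TPM.

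Other genes of extracellular proteolysis were counted from 4 lists, in the comparison of tumours with non-tumour livers over both genotypes. Of 8 genes of the plasminogen system, which activates several MMPs, 7 were tested, 5 rose and 1 fell. Of all genes tested in this comparison 20.1% were called and 12.2% were called higher, which is the background for the counts of all 4 lists. Serpinf2, the plasmin inhibitor of the liver, rose by 1.41 ± 0.21 (adjusted p = 0.000821), and Serpine2, a secreted inhibitor of serine proteases, fell by 1.18 (adjusted p = 0.0425). The list had a median of 1.15 against 0.08 for all genes. Of 23 Adam and Adamts proteases 11 were tested, 2 rose and 1 fell, shares near that background. Adamts14, a procollagen processing enzyme, rose by 1.85 ± 0.39 (adjusted p = 0.00644) from a mean of 0.561 TPM in GKO and 0.357 TPM in WT non-tumour livers to 8.71 and 3.06 TPM in tumours. Adam15, a membrane-anchored protease, rose by 0.83 (adjusted p = 0.0198) and Adamts13, which cuts von Willebrand factor, fell by 0.82 (adjusted p = 0.0440).

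Of the other 17 Mmp genes 3 were tested and Mmp13, a collagenase, rose by 0.68 (adjusted p = 0.0272), while Mmp1a and Mmp1b were listed at 0 in all 18 samples. Of 12 other regulators 8 were tested, 2 rose and 1 fell, beside the same 20.1% called and 12.2% called higher over all genes. Cd63, a tetraspanin at the cell surface that binds TIMP1, rose by 4.79 ± 0.23 (adjusted p = 7.70e-07), from means of 8.57 TPM in WT and 5.96 TPM in GKO non-tumour livers to 188 and 258 TPM in tumours. Itgb1, an integrin subunit, rose by 0.52 (adjusted p = 0.0496), and Lrp1, a receptor that clears proteases with their inhibitors, fell by 0.67 (adjusted p = 0.0325). Serpinf2, Adamts14, Adam15 and Cd63 passed under every alternative in which they were tested. The calls of the other 5 named genes were each lost under at least 6 alternatives.

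In GKO mice alone 4 of 7 tested plasminogen genes rose, among them Plg, plasminogen itself (1.72), and Serpinf2 (1.56), beside 11.7% of all genes called and 7.75% called higher in this comparison. Adamts14 (2.27), Adamts1 (1.22) and Adam15 (1.10) rose among 11 Adam and Adamts genes, beside the same background, and Cd63 rose by 5.23. All these counts of the plasminogen and Adam lists went to 0 under at least 1 alternative. In WT mice alone Cd63 rose by 4.34 and Pcsk6, a proprotein convertase, fell by 1.57 (adjusted p = 0.0492), beside 4.23% of all genes called. The call of Pcsk6 was lost in 9 of 16 alternatives, with an adjusted p of up to 0.197 without WT tumour 2. In none of the 3 comparisons of GKO with WT did a gene of these lists have an adjusted p under 0.05.

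The genes with levels most like 4 of the members over the 18 samples were sought among genes averaging 1 TPM or more, by Pearson's r on log2(TPM + 1). They were Col1a2 (0.895), Fkbp10 (0.890) and Rab38 (0.880) for Timp1, and Fads2 (0.945), Acaca (0.940) and Pdgfb (0.935) for Timp3. For Mmp12 they were Phlda3 (0.944), Zmat3 (0.940) and Tubb5 (0.940), and for Mmp14 Dph6 (0.913), Ckap4 (0.899) and Pias1 (0.876). All points share the difference between tumours and other samples.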

How the data were processed

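RNA was sequenced from 18 samples, grouped by the genotype and tissue of their labels. The authors aligned reads to mm10 (STAR 2.7.3a), assigned them to genes (featureCounts 2.0.0) and deposited TPM, scaled to 1000000 per sample. The annotation behind TPM is not given in the sources used here. Values of up to 30 reads, rebuilt from TPM and exonic length (GENCODE release 21, matching 54809 of 54838 genes), were whole within 0.02 in 97.95% to 98.67% of cases. Floors of 3 reads cover counting error only. The values list 101 symbols more than once, none of them a member.

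The main test was limma 3.58.1 under R 4.3.3 (lmFit, then eBayes with trend) on log2(TPM + 1), which understates changes of low genes. Only genes averaging 0.5 TPM or more over the samples compared entered. A call means a Benjamini-Hochberg adjusted p below 0.05. The scripts were tested on simulated data. Single genes had exact 2-sided permutation tests, for which 3 against 3 samples cannot go below 0.1, and tissue permuted within genotype cannot go below 0.005. Comparisons share samples and are not independent. Genes named were the 10 members, up to 3 called genes with the largest change of each other list, and the 3 genes most like Timp1, Timp3, Mmp12 and Mmp14; 1 gene that this rule selects is not reported here. The members and lists were chosen with earlier results of these data known. Alternatives were another pseudocount, filter, scaling and variance model, voom on recovered reads, an average of WT tumours 1 and 2, the replicate number as a block, and each sample left out. Deviations of same-numbered WT and GKO tumours from their group means correlated weakly, with r of 0.101, 0.120 and 0.197. The labels give no pairing by replicate number, so the block served only as an alternative. Python 3.11.15 served for the other steps, with scipy 1.17.1, pandas 2.3.3, numpy 2.4.6 and, for figures, matplotlib 3.10.9.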

Additional observations from a re-analysis of the deposited data

How the results depend on the processing

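The 29 differences of members that were followed had an unadjusted limma p under 0.1 or groups without overlap in the main fit. For the interaction only the p was used. Over 15 to 22 alternatives per comparison they kept their direction in all 497 refits. A reversal was unlikely from the start, since the differences were picked in the main fit and the refits reuse its samples. Of the refits 473 were on the same side of the threshold, 3 lost it and 21 gained it. The members called in GKO tumours against GKO non-tumour livers, 1 in the report, were 0 without a filter on low values (Timp3 adjusted p = 0.0550), 4 with all 18 samples in one fit and 2 with the replicate block, and 0 to 2 when a sample was left out. For tumours against non-tumour livers over both genotypes, 2 in the report, they were 4 with a pseudocount of 0.1, 4 with all 18 samples in one fit, 1 with a mean of at least 5 TPM, where Timp3 was not tested, and 2 to 4 when a sample was left out, with 4 without WT non-tumour 2 or WT tumour 3. Leaving out a sample gave 0 to 1 member in GKO against WT tumours, in WT tumours against WT non-tumour livers, in non-tumour against normal livers and in the interaction. The counts of GKO against WT in non-tumour and normal livers stayed at 0.

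The replicate block added Mmp2 in GKO tumours against GKO non-tumour livers (adjusted p = 0.0447) and Timp1 over both genotypes (adjusted p = 0.0398). It changed no call in GKO against WT tumours. In the other comparisons the correlations of same-numbered samples ran from -0.315 to 0.249. No pairing was taken from the numbers in any comparison. Depth limits Timp4, Mmp9, Mmp12 and, outside tumours, Timp1, which rested on a few reads. The 3 samples per group limit all comparisons of genotype.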
